A study of Mus musculus with 18 samples.

Results

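Meiotic recombination in the mouse is placed by PRDM9, a zinc finger protein that binds DNA and methylates the neighbouring histone H3 on lysines 4 and 36 (H3K4me3 and H3K36me3). A double strand break is then made at some of these sites, and the single-stranded DNA that results is coated by DMC1, the meiotic strand exchange protein. DMC1 ChIP-seq therefore marks hotspots of breaks, and H3K4me3 away from promoters marks where PRDM9 acted. The sites described here are strong marked hotspots: autosomal sites whose DMC1 value in B6 was at or above the upper quartile of autosomal sites, 98.2 RPM, and that shared at least 1 bp with an interval of the list of shared H3K4me3 sites. RPM is the read number scaled to library size. There were 1747 such sites among 8744 autosomal sites and 9132 listed sites in all, and they were 79.9% of the 2186 strong autosomal sites.

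The material was spermatocytes taken at 14 days post-partum. B6 was the C57BL/6J strain. Ewsr1-CKO was a conditional knockout of Ewsr1, which codes for an RNA-binding protein, made with Stra8-iCre, a Cre recombinase driven by the promoter of a gene active in male germ cells around the entry into meiosis. Prdm9 het was Prdm9+/-, with 1 intact Prdm9 copy. The labels name no strain background for the Ewsr1-CKO and Prdm9 het animals and no Cre in B6. DMC1 was used in all 3 genotypes and both histone marks in Ewsr1-CKO alone. The DMC1 list is named as common to B6, Ewsr1-CKO and Prdm9 het, and the H3K4me3 list as common to B6 and Ewsr1-CKO. Each column held 1 value for a group of 2 samples, and whether it pools or averages them is not stated. No value therefore has a replicate error, no test between genotypes was possible, and all differences below describe these columns. A comparison of hotspot classes likewise carries no test, since sites are not replicates.

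The B6 and Ewsr1-CKO columns lay on a common step, 0.129 and 0.246 RPM. If 1 step is 1 read, the strong marked hotspots had a median of 1322 reads in B6 and 697 in Ewsr1-CKO, with at least 764 and 240. The standard error that read sampling alone gives to a log2 ratio of these columns was then 0.068 at the median hotspot and at most 0.11. The depth of the other columns is unknown. Across all autosomal sites the Prdm9 het column was far lower than the others, with a median of 9.02 RPM, where B6 had 47.3 RPM and Ewsr1-CKO 56.0 RPM. Ratios with this column thus carry its low level as deposited and were read against the same ratio at other sites.

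Only RefSeq promoter windows, 250 bases before to 50 after a gene start, offered sequence, and no genome was used. Of the 1670 strong marked hotspots on chromosomes with such windows, 27 overlapped one (1.62%). Among all autosomal sites on those chromosomes the share was 1.95%. The strong marked hotspots were thus placed away from annotated gene starts about as often as autosomal hotspots in general. For 14 genes a window (15 windows in all) lay wholly inside both the DMC1 site and its H3K4me3 interval, and 11 of these were long noncoding RNA genes. These windows held 0 to 7 CpG dinucleotides, with a median of 4, and a median GC content of 46.0%. Over all 32851 windows the medians were 7 CpG and 52.7% GC, and 51.4% of them had 7 CpG or fewer. As background, CpG-rich DNA is typical of the promoters of widely used genes, which carry H3K4me3 without PRDM9.

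Among these, the 4 windows nearest a hotspot centre are shown to give DNA from inside such hotspots, although none reaches the centre itself, and the CpG-richest window inside a hotspot is shown for contrast. CpG dinucleotides are in capitals, each run reads 5′ to 3′ on the gene's strand, and positions are on GRCm38.p6, the assembly that mm10 names. Gm31493 lies at chr1:160025714-160026013 (minus strand), 5730405A17Rik at chr8:61428079-61428378 (minus), Gm51891 at chr11:44531142-44531441 (plus), Gm31650 at chr12:29439264-29439563 (plus) and Sned1 at chr1:93235647-93235946 (plus).
Gm31493: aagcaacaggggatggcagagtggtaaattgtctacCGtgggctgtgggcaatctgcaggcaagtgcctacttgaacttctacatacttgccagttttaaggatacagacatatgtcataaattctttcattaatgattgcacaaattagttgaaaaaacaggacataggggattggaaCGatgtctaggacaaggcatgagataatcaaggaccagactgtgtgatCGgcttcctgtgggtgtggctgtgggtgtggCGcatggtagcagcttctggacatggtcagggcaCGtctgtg
5730405A17Rik: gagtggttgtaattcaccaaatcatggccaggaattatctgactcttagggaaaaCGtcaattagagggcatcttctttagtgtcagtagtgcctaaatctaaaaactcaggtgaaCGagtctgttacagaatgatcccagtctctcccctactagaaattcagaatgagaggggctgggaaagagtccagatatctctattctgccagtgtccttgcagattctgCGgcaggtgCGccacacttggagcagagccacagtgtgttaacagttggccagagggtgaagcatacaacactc
Gm51891: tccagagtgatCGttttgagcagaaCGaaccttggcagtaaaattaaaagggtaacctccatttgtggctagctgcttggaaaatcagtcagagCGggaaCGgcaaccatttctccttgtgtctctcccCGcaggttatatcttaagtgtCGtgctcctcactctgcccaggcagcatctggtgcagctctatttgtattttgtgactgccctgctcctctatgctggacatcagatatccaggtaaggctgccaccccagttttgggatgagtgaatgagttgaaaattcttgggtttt
Gm31650: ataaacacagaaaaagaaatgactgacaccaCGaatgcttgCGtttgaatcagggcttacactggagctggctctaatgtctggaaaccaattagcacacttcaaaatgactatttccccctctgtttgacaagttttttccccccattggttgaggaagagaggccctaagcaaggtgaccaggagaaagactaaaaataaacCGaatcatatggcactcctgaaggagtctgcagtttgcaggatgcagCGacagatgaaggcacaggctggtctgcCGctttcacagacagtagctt
Sned1: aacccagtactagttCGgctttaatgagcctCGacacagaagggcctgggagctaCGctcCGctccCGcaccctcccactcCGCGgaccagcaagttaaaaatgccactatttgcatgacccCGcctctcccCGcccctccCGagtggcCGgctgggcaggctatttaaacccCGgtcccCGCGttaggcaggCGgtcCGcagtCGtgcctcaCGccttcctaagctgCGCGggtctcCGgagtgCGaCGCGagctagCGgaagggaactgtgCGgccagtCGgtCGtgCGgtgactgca

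The first 4 windows held 5, 4, 6 and 5 CpG and the Sned1 window 29. The hotspot around the Gm31650 window had DMC1 of 267, 197 and 41.7 RPM in the order B6, Ewsr1-CKO, Prdm9 het, which all triplets below follow, and H3K4me3 of 3.07 RPM. At the Gm51891 window DMC1 was 236, 193 and 33.4 RPM, and H3K4me3 was 1.71 RPM. At the Gm31493 window DMC1 was 142, 129 and 29.8 RPM, with H3K4me3 of 1.88 RPM. At the 5730405A17Rik window DMC1 was 173, 178 and 37.2 RPM. The log2 ratios of Ewsr1-CKO over B6 were −0.44, −0.28, −0.13 and 0.05 in the order given, with sampling errors of 0.060, 0.061, 0.076 and 0.066, and all 4 were below the median of autosomal sites, 0.16. The Sned1 window lay 1096 bp from its hotspot's centre and outside the H3K4me3 interval. DMC1 at that hotspot was 165, 124 and 40.8 RPM.

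Strong marked hotspots were also strong in the DMC1 columns that the quartile rule did not use. The site list is named as common to all genotypes used, so hotspots missing in a mutant may be absent from it. The shares below therefore hold for shared sites only. DMC1 in B6, which chose them, ran from 98.3 to 1213 RPM with a median of 170 RPM. In Ewsr1-CKO it ran from 58.9 to 1086 RPM (median 171 RPM) and in Prdm9 het from 0.191 to 200.3 RPM (median 34.0 RPM). In Ewsr1-CKO 1498 of the 1747 (85.7%) were at or above that column's own autosomal upper quartile, where 25.1% of all autosomal sites lie by definition, and they made up 68.4% of that top group. In Prdm9 het 1514 (86.7%) passed the corresponding value, against 25% of all autosomal sites, and made up 69.3% of the top group. Strong hotspots without a listed H3K4me3 interval, 439 in number, passed it in 86.8% of cases in Ewsr1-CKO and in 76.3% in Prdm9 het. Within the strong marked hotspots Spearman's rho across sites was 0.83 between B6 and Ewsr1-CKO, 0.71 between B6 and Prdm9 het and 0.66 between Ewsr1-CKO and Prdm9 het (n = 1747 sites, which share the site list and their width).

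**Figure D1:**
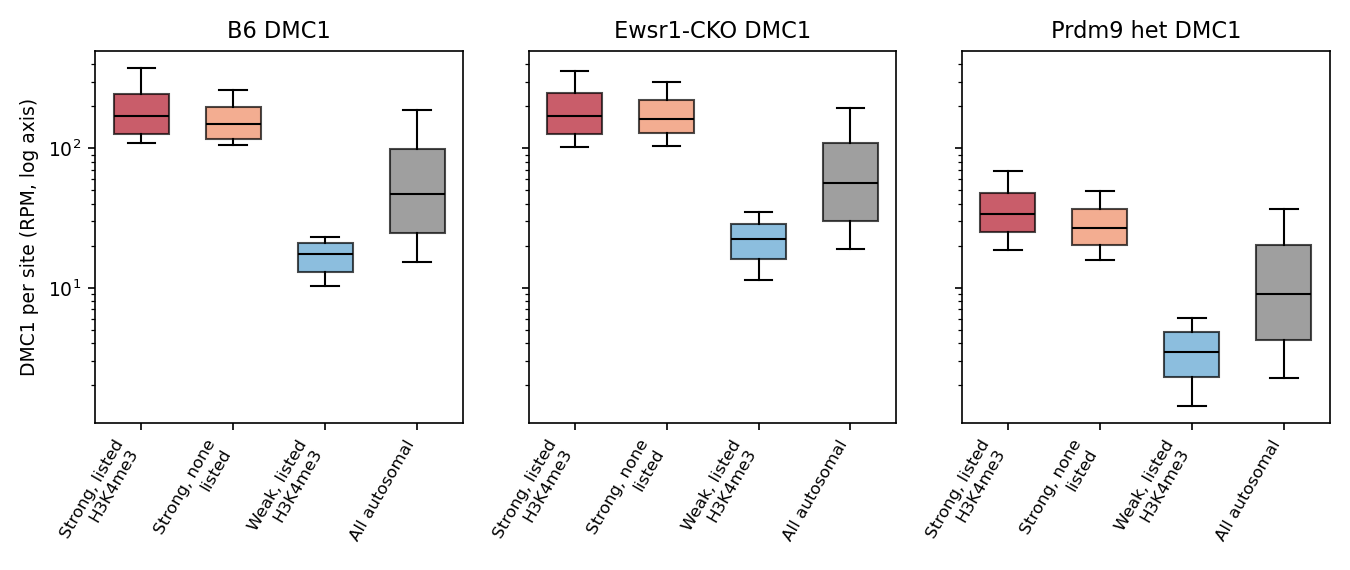
DMC1 per site in RPM (log axis) in B6, Ewsr1-CKO and Prdm9 het for strong hotspots with listed H3K4me3 (n = 1747), strong hotspots with none listed (n = 439), weak hotspots with listed H3K4me3 (at or below the lower quartile in B6, n = 742) and all autosomal sites (n = 8744). Boxes span the quartiles with the median, whiskers the 10th to 90th percentile. Strong marked hotspots have the highest median in each genotype, with 170, 171 and 34.0 RPM. Their lower quartile in Ewsr1-CKO was 127 RPM, against 129 RPM at strong hotspots with none listed.

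The 3 strongest in B6 lay within protein-coding genes. The table used gives gene bounds only, so exons and introns were not told apart. The strongest, at chr1:68487445-68490678 in Erbb4, a receptor tyrosine kinase gene, had 1213, 1086 and 198 RPM. The next, at chr12:4972671-4976035 in Atad2b, had 1194, 782 and 127 RPM. The one at chr6:39638892-39641921 in Braf, a kinase gene, had 1083, 646 and 151 RPM. Their log2 ratios of Ewsr1-CKO over B6 were −0.16, −0.61 and −0.74, which picking the highest sites of the B6 column favours. At the edge of the selection, the marked sites just inside had 98.3 RPM in B6 (chr11:97026607-97029102 and chr19:3646179-3648817) and those just outside 98.1 RPM (chr9:16593617-16596499 and chr1:165866394-165869100). Ewsr1-CKO values at these 4 sites were 110, 102, 132 and 94.8 RPM, and Prdm9 het values 23.3, 32.2, 24.3 and 12.3 RPM. In both columns the range of the pair just outside overlapped that of the pair just inside.

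The strong marked hotspots took a smaller share of DMC1 in Ewsr1-CKO than in B6. They were 20.0% of autosomal sites and held 52.7% of the summed autosomal DMC1 in B6, 47.5% in Ewsr1-CKO and 51.1% in Prdm9 het. Strong hotspots without listed H3K4me3 held 10.7%, 10.9% and 9.80%. Site by site, the log2 ratio of Ewsr1-CKO over B6, computed on log2(RPM + 1), had a median of −0.06 at strong marked hotspots and 0.16 over all autosomal sites, a difference of −0.22. Of the 1747, 1303 (74.6%) lay below the autosomal median. Strong hotspots without listed H3K4me3 had a median of 0.03, and 59.9% of them also lay below the autosomal median. B6 both chose these sites and stands in the denominator, which favours low ratios, so these values are a description. Choosing the marked sites by the upper quartile of Ewsr1-CKO DMC1, which favours high ratios, gave 1672 sites whose median was still 0.13 below that of all autosomal sites.

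Relative to the autosomal median, 235 of the 1747 (13.5%) were lower in Ewsr1-CKO by at least 1.5-fold, against 6.34% of all autosomal sites, and 52 (2.98%) were higher, against 11.4%. Of the 1672 sites chosen by Ewsr1-CKO DMC1, 173 were lower and 136 higher. The lowest ratio was at chr2:25629393-25632180, which overlaps Fcna, a ficolin gene, with 519, 75.9 and 97.7 RPM. There the log2 ratio was −2.76 (sampling error 0.085). As deposited, with the low level of the whole Prdm9 het column, this site alone of the 1747 had Ewsr1-CKO below Prdm9 het. Its H3K4me3 interval had 0.397 RPM and was centred 676 bp from the hotspot centre. Over the whole DMC1 site H3K4me3 was 1.26 RPM, against a median of 1.51 RPM over the sites of strong marked hotspots. The next lowest were chr19:60538157-60541000 in Cacul1 (142 and 62.1 RPM in B6 and Ewsr1-CKO, −1.18) and chr9:119263581-119266169 in Oxsr1 (151 and 71.2 RPM, −1.07). Their distances to the last site listed on the chromosome were 0.614 and 4.09 Mb. The highest ratios were outside protein-coding genes, at chr8:100457006-100459840 (106 and 306 RPM, 1.52), chr1:108684882-108687844 (99.7 and 276 RPM, 1.46) and chr6:59976614-59979605 (146 and 363 RPM, 1.31). The ratios of the 1747 had an interquartile range of −0.28 to 0.17, and how much of it replicates would share is unknown.

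Prdm9 het was low against B6 at each of the 1747 sites as deposited, which includes the low level of the whole column. The median log2 ratio was −2.34 at strong marked hotspots and −2.27 over all autosomal sites, a difference of −0.08 that turned to 0.05 with no pseudocount or with the columns scaled to equal autosomal totals. With the marked sites chosen by the upper quartile of Prdm9 het instead, the difference was 0.08. The direction thus followed the choice of setting, in contrast to Ewsr1-CKO over B6. Relative to the autosomal median, 214 (12.2%) were lower by at least 1.5-fold, against 9.78% of autosomal sites, and 90 (5.15%) were higher, against 10.3%. At strong hotspots without listed H3K4me3 16.2% were lower and 3.19% higher. The count of higher sites was 162 with no pseudocount, and of the 1784 sites chosen by Prdm9 het DMC1 101 were lower and 226 higher, which turned the balance.

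Ewsr1-CKO over Prdm9 het is the ratio that holds no column used in the selection. Its median was 2.33 at strong marked hotspots, 2.60 at strong hotspots without listed H3K4me3 and 2.46 over all autosomal sites. The strong marked hotspots were thus 0.13 below the autosomal median, 0.27 below with no pseudocount, 0.07 below for the top 10% of B6 DMC1 and 0.03 below where Ewsr1-CKO DMC1 chose the sites. Of the 1747, 326 (18.7%) were lower by at least 1.5-fold against 13.3% of autosomal sites. Higher ratios of that size were found at 147 (8.41%), against 13.2%. Of the 1672 sites chosen by Ewsr1-CKO DMC1, 224 were lower and 199 higher, shares close to those of all autosomal sites. Of the 1784 chosen by Prdm9 het DMC1, 486 were lower and 62 higher. The lowest after the Fcna site were chr3:87757504-87760419 in Pear1 (228.5, 124 and 81.7 RPM) and chr4:139205097-139208380 in Capzb, an actin capping protein gene (169, 90.3 and 54.9 RPM). H3K4me3 at their intervals was 5.86 and 9.90 RPM, against a median of 1.35 RPM over the strong marked hotspots.

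**Figure D2:**
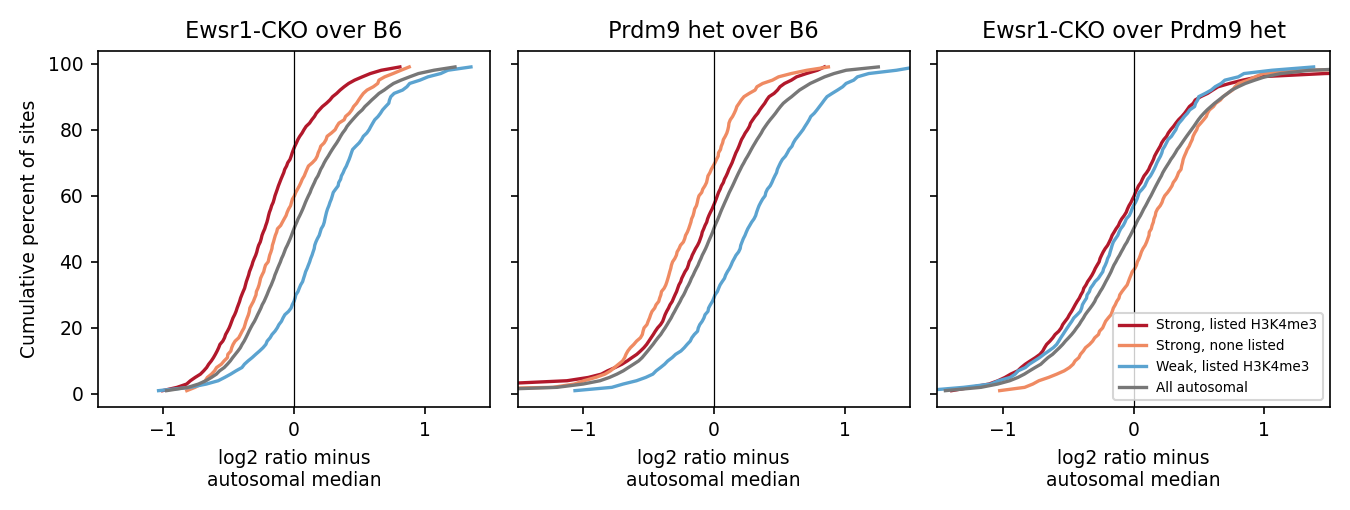
Cumulative percent of sites (y axis) by log2 ratio of DMC1 minus the median of all autosomal sites (x axis) for 3 pairs of genotypes and the 4 hotspot classes, 1st to 99th percentile, with values beyond 1.5 not shown. The curve of strong marked hotspots lies left of the autosomal curve for Ewsr1-CKO over B6, with 74.6% of its sites below 0.

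Strong hotspots with and without listed H3K4me3 differed in B6 strength (medians of 170 and 148 RPM), so they were also set side by side within the same ranges of B6 DMC1. In the 4 ranges set by the quartiles of the strong marked hotspots, from weak to strong, the median Ewsr1-CKO over B6 ratio was lower with listed H3K4me3 by 0.14, 0.11, 0.10 and 0.09. For Prdm9 het over B6 it was higher by 0.20, 0.15, 0.18 and 0.13. The 2 mutants therefore lay on opposite sides at hotspots with listed H3K4me3, relative to hotspots without it in the same range, in each of the 4 ranges. In the strongest range the classes still differed in B6, with medians of 341 and 301 RPM. Both ratios share the B6 column. Ewsr1-CKO over Prdm9 het, without B6, was lower with listed H3K4me3 by 0.31, 0.30, 0.27 and 0.19.

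The H3K4me3 intervals lay on the hotspot centres. Of the 1747 hotspots, 1745 overlapped 1 interval and 2 overlapped 2, and no interval served 2 strong marked hotspots. The hotspot centre was inside the interval at 1692 (96.9%), and the centres of both were within 250 bp of each other at 1382 (79.1%), with a median distance of 121 bp. The intervals had a median width of 2089 bp (532 to 5424 bp) and the hotspots 2780 bp (1824 to 4589 bp). At weak hotspots with a listed interval the median interval was 1470 bp wide. Strong marked hotspots thus had wider H3K4me3 intervals as well as more DMC1.

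In Ewsr1-CKO the intervals held H3K4me3 of 0.134 to 9.90 RPM with a median of 1.35 RPM. Weak hotspots with listed H3K4me3 had a median of 0.775 RPM, so the level at strong marked hotspots was 1.74-fold higher per interval. Per kilobase the medians were 0.644 and 0.536 RPM, a 1.20-fold difference. H3K36me3, which the selection did not use, ran from 0.111 to 10.5 RPM with a median of 1.96 RPM. It was 2.09-fold higher per interval than at weak hotspots (0.938 RPM) and 1.47-fold higher per kilobase. Both classes were chosen to hold a listed H3K4me3 interval, so the folds of H3K4me3 and H3K36me3 cannot be set against each other.

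The highest H3K4me3 was in Capzb, 9.90 RPM over the interval at chr4:139204945-139210369, with 9.15 RPM of H3K36me3. The hotspot in Plekha5 at chr6:140589955-140593079 had 8.74 and 8.37 RPM, and the one in Sptbn5, a spectrin gene, at chr2:120065295-120067988 had 7.25 and 5.29 RPM. DMC1 at these 3 was 169, 90.3 and 54.9 RPM in Capzb, 461, 325 and 93.7 RPM in Plekha5, and 128, 130 and 63.8 RPM in Sptbn5. Most H3K36me3, 10.5 RPM, was at chr11:79545499-79548592 in Nf1, the neurofibromin gene, with 5.15 RPM of H3K4me3 and DMC1 of 537, 290 and 135 RPM. The hotspot at chr11:105865952-105869112 in Tanc2 came after Nf1 and Capzb by H3K36me3. It had 9.06 RPM and DMC1 of 391, 327 and 105 RPM. These ranks are of RPM per interval, not per kilobase. The intervals at Capzb, Plekha5, Sptbn5, Nf1 and Tanc2 were 5424, 4276, 3132, 4377 and 4734 bp wide, against a median of 2089 bp. Of these 5 sites, Ewsr1-CKO was below B6 at Capzb, Plekha5, Nf1 and Tanc2 and within sampling error of it at Sptbn5 (log2 ratio 0.02, sampling error 0.078), where it was still below the autosomal median of 0.16. The Sptbn5 site was also among the 3 with the highest Prdm9 het over B6 ratio, −0.99 as deposited, with chr14:74869038-74871966 in Lrch1 (−0.73) and chr15:66693588-66696602 in Tg, the thyroglobulin gene (−0.93).

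Both marks rose with each other and followed gene bodies to different degrees. Spearman's rho between H3K4me3 and H3K36me3 was 0.66 over the 1747 intervals, which share their width, and 0.42 per kilobase. As background, H3K36me3 is laid down by SETD2 along transcribed gene bodies as well as by PRDM9. Of the strong marked hotspots, 1042 (59.6%) overlapped a protein-coding gene, against 54.1% of autosomal sites and 52.2% of strong hotspots without listed H3K4me3. In genes the median H3K36me3 was 2.49 RPM and outside them 1.61 RPM, while H3K4me3 was 1.44 and 1.25 RPM. The share in genes was 41.4% in the lowest quartile group of strong marked hotspots by H3K36me3 and 90.4% in the highest, but 53.5% and 67.0% in those by H3K4me3.

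**Figure D3:**
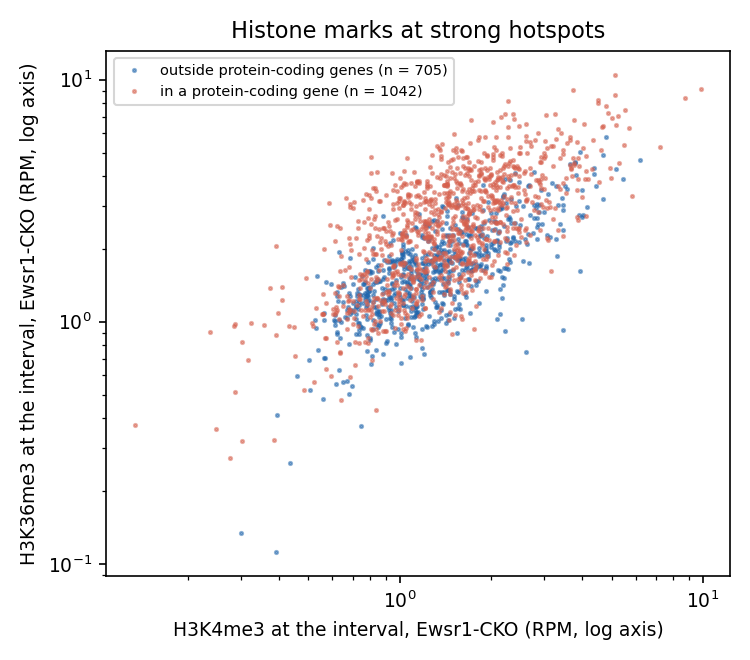
H3K36me3 (y axis) against H3K4me3 (x axis) at the interval of each strong marked hotspot in Ewsr1-CKO, in RPM on log axes, with hotspots in (n = 1042) and outside (n = 705) protein-coding genes in different colours. At like H3K4me3 the points in genes reach higher H3K36me3, with medians of 2.49 RPM in genes and 1.61 RPM outside.

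Among strong marked hotspots, DMC1 followed H3K4me3 least in Ewsr1-CKO. From the lowest to the highest quartile group by H3K4me3 (436 or 437 sites each), the median DMC1 went from 145 to 209.8 RPM in B6, a 1.45-fold difference, and from 28.2 to 43.7 RPM in Prdm9 het, 1.55-fold. In Ewsr1-CKO it went from 166 to 182 RPM, 1.10-fold, although the H3K4me3 was measured in that genotype. The interval also widened over these groups, from a median of 1762 to 2636 bp. Grouped by H3K4me3 per kilobase, B6 went from 157 to 180.0 RPM and Prdm9 het from 30.3 to 39.0 RPM, while Ewsr1-CKO went down, from 178 to 156 RPM. Over the groups by H3K4me3 per interval, the median Ewsr1-CKO over B6 ratio was 0.06, −0.02, −0.08 and −0.25 over the 4 quartile groups, with the share of sites lower by at least 1.5-fold at 7.09%, 7.32%, 11.5% and 27.9%. Prdm9 het over B6 went the other way, −2.41, −2.37, −2.32 and −2.25. Ewsr1-CKO over Prdm9 het fell from 2.54 to 2.01.

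This gradient was seen at each level of B6 DMC1. Between the highest and lowest quartile group by H3K4me3, the median Ewsr1-CKO over B6 ratio differed by −0.21, −0.29, −0.26 and −0.32 within the 4 quartile groups of strong marked hotspots by B6 DMC1. Prdm9 het over B6 differed by 0.30, 0.31, 0.32 and 0.09, and Ewsr1-CKO over Prdm9 het by −0.59, −0.69, −0.71 and −0.44. Across the 1747 sites, Spearman's rho of H3K4me3 with Ewsr1-CKO over B6 was −0.35, with Prdm9 het over B6 0.15 and with Ewsr1-CKO over Prdm9 het −0.35. Pearson's r, with H3K4me3 in RPM, was −0.36, 0.0003 and −0.16, so the positive relation with Prdm9 het over B6 was seen in ranks and group medians but not in Pearson's r. The corresponding rho for Ewsr1-CKO over B6 was 0.04 at the 742 weak hotspots with listed H3K4me3 and −0.29 over the 4890 autosomal sites with an interval. At the weak hotspots rho was 0.20 for Prdm9 het over B6 and −0.14 for Ewsr1-CKO over Prdm9 het. Pearson's r at the weak hotspots was −0.09 for Ewsr1-CKO over B6, 0.22 for Prdm9 het over B6 and −0.28 for Ewsr1-CKO over Prdm9 het. With H3K4me3 taken over the whole DMC1 site, rho for Ewsr1-CKO over B6 was −0.17 at the 439 strong hotspots without a listed interval and −0.38 at the strong marked hotspots. Weak sites held fewer reads, with medians of 136 in B6 and 91 in Ewsr1-CKO, and the part of depth in this contrast was not tested.

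**Figure D4:**
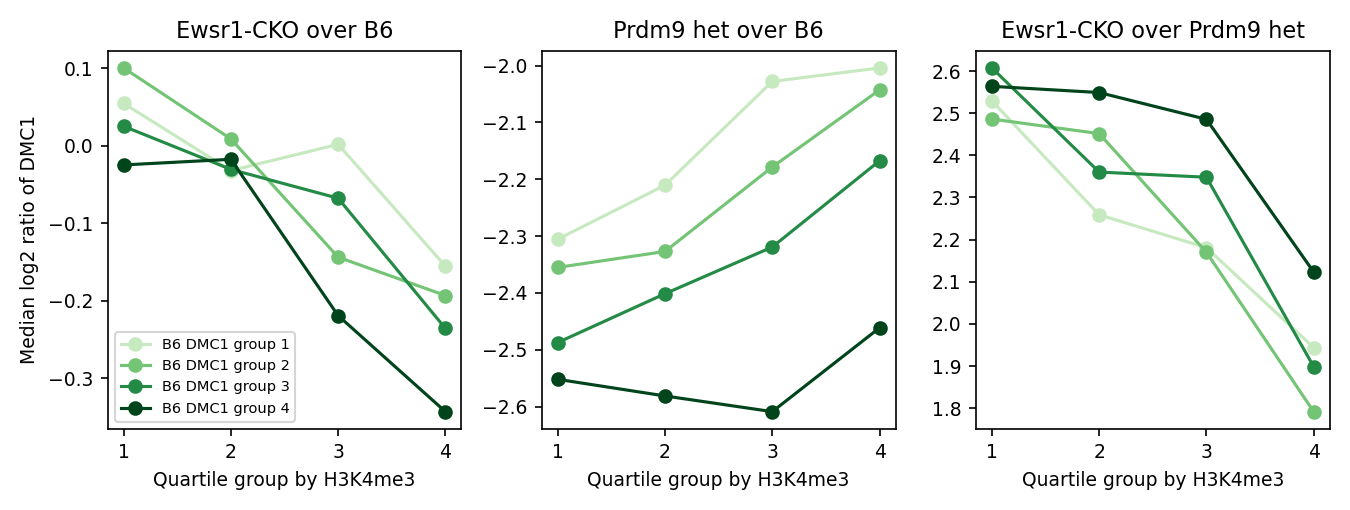
Median log2 ratio of DMC1 (y axis) for 3 pairs of genotypes in each quartile group of strong marked hotspots by H3K4me3 at the interval (x axis, 1 lowest, 4 highest), with 1 line per quartile group by B6 DMC1 (1 lowest, 4 highest) and 56 to 179 sites a point. Lines fall from the first to the last quartile group for Ewsr1-CKO over B6 and over Prdm9 het, and rise for Prdm9 het over B6.

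For Prdm9 het the ratio by H3K36me3 depended on what was held alike. From the lowest to the highest quartile group by H3K36me3, the Ewsr1-CKO over B6 median went from 0.01 to −0.26, as with H3K4me3, whereas Prdm9 het over B6 fell from −2.33 to −2.51. Within the 4 quartile groups by H3K4me3, the hotspots richest in H3K36me3 differed from the poorest in Prdm9 het over B6 by −0.32, −0.32, −0.54 and −0.09, the last resting on 9 sites in its lowest group. Within the 4 quartile groups by B6 DMC1 the difference was only −0.04, −0.11, −0.03 and −0.06. Spearman's rho of H3K36me3 with Prdm9 het over B6 was −0.10 at the 1042 strong marked hotspots in genes and 0.13 at the 705 outside. Pearson's r on the same sites was −0.06 and −0.05, so the difference in sign was not seen on that measure. In genes the median Prdm9 het over B6 was −2.43 and outside −2.24, and Ewsr1-CKO over B6 was −0.14 and 0.05. All autosomal sites showed a like split, −2.34 in genes and −2.19 outside for Prdm9 het over B6 and 0.09 and 0.25 for Ewsr1-CKO over B6. Spearman's rho of H3K36me3 with Ewsr1-CKO over B6 was −0.32 in genes and −0.08 outside, where that of H3K4me3 was −0.32 and −0.34. Pearson's r was −0.32 and −0.17 for H3K36me3 and −0.33 and −0.39 for H3K4me3.

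A small set of strong marked hotspots had far less DMC1 in Prdm9 het than other hotspots of like B6 level. The limit for it, a log2 ratio over B6 of −4 on log2(RPM + 1) (16-fold lower), includes the low level of the whole column, whose autosomal median was −2.27, and was chosen after the values were seen. It was passed by 52 of the 1747 (2.98%), against 1.27% of autosomal sites and 5 of the 439 strong hotspots without listed H3K4me3 (1.14%). With the pseudocount a site under 15 RPM in B6 cannot reach the limit, which holds for 9.65% of autosomal sites, and other weak sites reach it only near 0 RPM, so the autosomal share is held down by construction. These 52 sites had median DMC1 of 217, 197 and 2.22 RPM, with Prdm9 het values up to 20.2 RPM, and a median H3K4me3 in Ewsr1-CKO of 1.82 RPM. Their Ewsr1-CKO over B6 ratios lay between −0.65 and 0.77 with a median of −0.18, against −0.06 at the other 1695 strong marked hotspots, so none was depleted in Ewsr1-CKO to the degree seen in Prdm9 het.

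The lowest of them were chr9:83859376-83862215 in Ttk, a spindle checkpoint kinase gene (766, 674 and 0.454 RPM), chr3:38903651-38906584 in Fat4, a protocadherin gene (640, 590.0 and 0.638 RPM), and chr8:32248524-32251667 in Nrg1, the neuregulin 1 gene (800, 534 and 1.25 RPM). A second hotspot in Fat4, at chr3:38955146-38957986, had 440, 427 and 0.566 RPM. The 52 lay on 12 chromosomes, and 37 of them were on chromosomes 14 (15 sites), 8 (11) and 9 (11). Those chromosomes held 85, 90 and 81 strong marked hotspots in all. The chromosomes of the other autosomal sites past the limit were not counted. On chromosome 8 the 11 lay between 14623140 and 35991251, among 24 strong marked hotspots in that span. On chromosomes 14 and 9 they were spread, from 12041122 to 105830502 among 77 strong marked hotspots and from 15690773 to 104458095 among 63. At 28 of the 52 (53.8%) a neighbouring listed site also passed the limit, and so it did at 53 of all 111 autosomal sites past it (47.7%). The share of sites in general with such a neighbour was not counted. Without the 52, the median Prdm9 het over B6 ratio of the strong marked hotspots was −2.33 in place of −2.34.

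**Figure D5:**
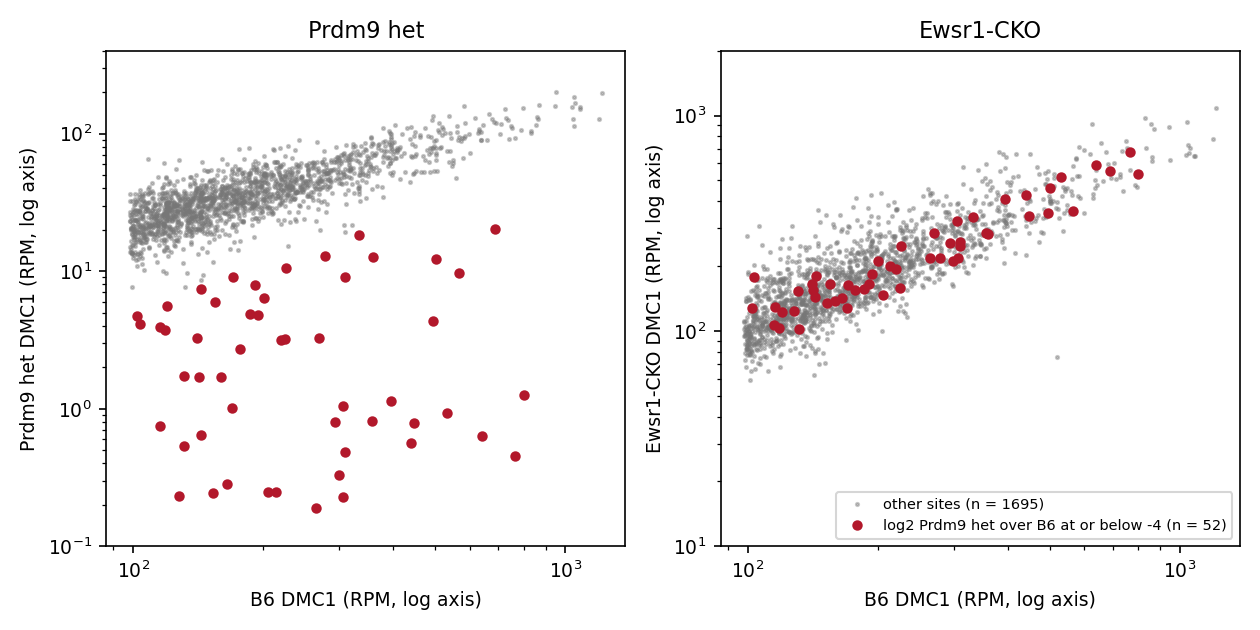
DMC1 in Prdm9 het (left) and in Ewsr1-CKO (right) against DMC1 in B6 at strong marked hotspots, in RPM on log axes. The 52 sites at a log2 Prdm9 het over B6 ratio of −4 or lower (red) lie below the band of the other 1695 sites on the left and among them on the right.

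The Ewsr1-CKO ratio was lower near the distal chromosome ends, at strong marked hotspots as at all sites. At the 93 strong marked hotspots at most 10 Mb from the last site listed on a chromosome, the median Ewsr1-CKO over B6 ratio was −0.25, against −0.06 at the other 1654. Over all autosomal sites the values were −0.05 and 0.17. Strong marked hotspots were thus below the general level in both zones. They were slightly less frequent near distal ends than autosomal sites in general, 5.32% against 7.33%.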

How the data were processed

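DMC1, H3K4me3 and H3K36me3 ChIP-seq were measured in 18 samples of 12 groups, and columns of 5 groups (10 samples) were used. The RPM values are the authors' (read number scaled to library size, per the file headers). Their denominator, duplicate handling, peak caller and the merging of replicates are not given in the sources used here. BWA 0.5.10, Trimmomatic 0.32 and mm10 are named in the submitters' processing notes. A further 4 value columns, whose genotype and mark match none of the samples listed here, were left out. The H3K4me3 table had 5787 lines, and 220 repeats of an interval were averaged, leaving 5567. Overlap required 1 bp, and where 2 intervals overlapped a hotspot the one sharing more was used.

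Log2 ratios used a pseudocount of 1 RPM. A site was counted as higher or lower when its ratio differed from the median of all autosomal sites by at least 1.5-fold. Since each group had 1 value, no test was made, and limma or count models were not used. Correlations are across sites, without p-values. The step of the B6 and Ewsr1-CKO columns (100% of values within 0.05 of a whole multiple) gave only the read sampling error, which covers counting error only. The functions were tested on simulated data. Genes came from RefSeq on GRCm38.p6, the assembly that mm10 names.

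The members and lists were chosen with earlier results of these data known. Sites were named by rule: the 3 highest in B6 DMC1, H3K4me3 and H3K36me3, the 3 highest and lowest for each ratio, and the 2 on either side of the threshold. Gene windows were taken by nearness to the hotspot centre and by CpG number. Alternatives were another pseudocount, scaling, threshold column or level, overlap rule, region set, interval measure and repeat handling. Calculations used Python 3.11.15, numpy 2.4.6, pandas 2.3.3, scipy 1.17.1 and matplotlib 3.10.9.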

Additional observations from a re-analysis of the deposited data

How the results depend on the processing

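Values here are medians at strong marked hotspots minus those of all autosomal sites. For Ewsr1-CKO over B6 (−0.22) the difference was −0.31 for the top 10% of B6 DMC1, −0.13 and −0.19 for the upper quartile of Ewsr1-CKO or Prdm9 het DMC1, and −0.20 without the sites lowest in mean DMC1. The other 6 alternatives for it stayed within the 95% order-statistic interval of the median over sites. Intervals of this kind treat sites as independent and give no error of the genotype columns, so they serve only as a yardstick. For Prdm9 het over B6 (−0.08) it was 0.034 with a pseudocount of 0.1, 0.047 with none, 0.046 with equal autosomal totals, 0.046 with equal medians and 0.077 for the upper quartile of Prdm9 het DMC1, all of the opposite sign, and −0.21 for the top 10%. For Ewsr1-CKO over Prdm9 het (−0.13) it was −0.255 with a pseudocount of 0.1, −0.27 with none, −0.26 with equal totals, −0.27 with equal medians, −0.069 for the top 10%, and −0.031 and −0.27 for the upper quartile of Ewsr1-CKO or Prdm9 het DMC1. The fold of strong marked over weak marked hotspots was 1.20 for H3K4me3 and 1.47 for H3K36me3 per kilobase, in place of 1.74 and 2.09, and strong hotspots had wider intervals. The differences between the highest and lowest quartile groups by H3K4me3 did not move beyond their intervals. The share of sites past 1.5-fold moved by more than 1.5 times in 11 cases and by less in 43. Ratios of named sites left their 95% read sampling interval in 42 cases and stayed in it in 30, with the sampling of the Prdm9 het column not counted. The cause of these shifts was not tested. The Prdm9 het and histone columns have no known depth, so their sampling error is unknown.

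No paired analysis was possible because each column gives 1 value per group and carries no replicate; leaving out a replicate was not run for the same reason. Sequence of whole hotspots was not analysed here, so its alternative was not run.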

Other observations

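The offset of strong marked hotspots from the other sites was spread over the genome. On each of 19 autosomes their median Ewsr1-CKO over B6 ratio lay below that of all sites of the chromosome, by −0.33 on chromosome 8 to −0.16 on chromosome 3. B6 chose these sites and is the denominator, which favours a lower median on every chromosome. For Ewsr1-CKO over Prdm9 het it also lay below on 19 of 19, by −0.23 on chromosome 9 to −0.003 on chromosome 14, which held 15 of the 52 hotspots lowest in Prdm9 het over B6. Strong hotspots were most often marked on chromosome 12, where 92.5% of them overlapped a listed H3K4me3 interval, and least often on chromosome 10, 69.0%. The distance to the nearest other listed hotspot had a median of 75.2 kb at strong marked hotspots, 93.0 kb at strong hotspots without listed H3K4me3 and 83.0 kb over all autosomal sites.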
